A study of Petromyzon marinus with 17 samples.

Results

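Non-methylated islands (NMIs) of adult brain were compared with those of day 1 embryos, which are at a cleavage stage before the zygotic genome is activated, in the sea lamprey. BioCAP was performed on sonicated genomic DNA, from which fragments with unmethylated CpG sites are pulled down by the CxxC zinc finger of human KDM2B, and each peak called in a library is one NMI. There were 2 brain and 2 day 1 libraries among 12 libraries of 6 tissues, the others being muscle, peripheral blood mononuclear cells (PBMCs), sperm and day 2 embryos. All animals were untreated, and the study describes its replicates as biological. The brain replicates came from different fish, one of each sex, and it is not stated which replicate is which sex or how embryos were pooled. The NMIs of a tissue were the bases that lay in an NMI of both its replicates. Brain and day 1 NMIs were then merged where they overlapped or touched, which gave 142913 merged NMIs covering 96.7 Mb, out of 166793 when all 6 tissues were merged in the same way. A merged NMI is called kept when both tissues have an NMI in it, gained when only brain does and lost when only day 1 does.

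In most vertebrates the majority of CpG sites are methylated, and NMIs, also known as CpG islands, are short stretches that stay free of methylation, often at gene promoters. The sea lamprey differs, as the study reports intermediate methylation at most CpG sites in all tissues it profiled. The methyl mark is rewritten in early embryos of many vertebrates, so that islands of germ cells and cleavage embryos need not be those of adult tissues. The sea lamprey also eliminates part of its germline genome from somatic cells during embryogenesis. Positions are given on petMar3, which is a germline assembly, and so a day 1 NMI with no brain NMI can lie in DNA that is methylated in brain, in DNA that brain no longer carries, or where brain signal was too weak for a peak in one or both libraries. The peak lists do not tell these apart.

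The brain lists were longer and covered more bases than the day 1 lists. Brain libraries held 130672 and 141921 NMIs covering 94.8 and 110 Mb, against 119911 and 117229 NMIs covering 63.3 and 64.4 Mb in day 1. The median NMI was 540 and 564 bp wide in brain and 418 and 437 bp wide in day 1. Median fold enrichment over the local background was 7.57 and 6.76 in brain and 8.04 and 8.16 in day 1, whereas the median -log10 q-value was 26.1 and 30.1 in brain and 12.2 and 12.5 in day 1. The mapping table of the study lists fewer uniquely aligned read pairs for both day 1 libraries than for either brain library, and the peak lists hold no read counts. A region without a day 1 NMI is therefore one where no peak was called at a lower depth, and it was not shown to be methylated. The weakest NMI of every list had a q-value just under 0.05, from 0.0481 to 0.0497 in these 4 lists.

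Replicates of one tissue shared more bases with each other than with the other tissue. The Jaccard index, which is the bases shared by 2 lists over the bases in either, was 0.771 between the brain replicates and 0.693 between the day 1 replicates. Between a brain and a day 1 library it was 0.461 to 0.498 in the 4 pairs, so that every pair of libraries from different tissues fell below both pairs of replicates. The mean index within tissues exceeded that between tissues by 0.254, and the other 2 ways to split the 4 libraries into pairs gave -0.130 and -0.125. An exact permutation test (one-sided) over these 3 splits gave p = 0.333, which is the smallest value that 2 libraries per tissue allow. With lists of equal length, the 117229 NMIs with the highest -log10 q-value of each library, the difference was also 0.254.

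Most of the embryonic NMI set was still present in brain, while a large part of the brain set was not found in the embryo. The brain replicates shared 128409 stretches covering 89.1 Mb, and the day 1 replicates shared 106301 stretches covering 52.3 Mb. Of the day 1 stretches, 85.8% overlapped a brain stretch by at least 1 bp, whereas 62.9% of the brain stretches overlapped one of day 1. In bases, 44.7 Mb were shared, which is 50.1% of the brain NMIs and 85.4% of the day 1 NMIs. Counted over merged NMIs, 80156 were kept (56.1% of all 142913), 47677 were gained (33.4%) and 15080 were lost (10.6%), and there were thus 3.16 gained NMIs for each lost one.

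Over both directions, the bases that changed lay about as often beside a kept NMI as in a gained or lost one. Of the 44.4 Mb found in brain alone, 20.9 Mb were in gained NMIs and 23.5 Mb were at kept NMIs, where the brain stretch reached further than the embryonic one. Of the 7.62 Mb found in day 1 alone, 5.09 Mb were in lost NMIs and 2.53 Mb were at kept NMIs.

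An NMI missing from the shared bases of a tissue could still be present in one of its libraries. Of the gained NMIs, 33996 (23.8% of merged NMIs) overlapped no NMI of either day 1 library, and 13526 overlapped an NMI of one day 1 library, 6500 of replicate 1 and 7026 of replicate 2. Of the lost NMIs, 9624 (6.73% of merged NMIs) overlapped none of either brain library, and 5451 overlapped an NMI of one. In that group the brain libraries were unequal, with 499 in replicate 1 alone and 4952 in replicate 2 alone. The study lists more read pairs, and more uniquely aligned ones, for brain replicate 2 than for brain replicate 1. The gained NMIs absent from both day 1 libraries and the lost NMIs absent from both brain libraries are called strictly gained and strictly lost, and there were 3.53 of the first for each of the second.

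Gained NMIs outnumbered lost ones at every list length examined, and the excess shrank as the lists were made equal and shorter. With the 117229 highest-ranked NMIs of each library there were 130066 merged NMIs, of which 75133 were kept (57.8%), 35966 gained (27.7%) and 18967 lost (14.6%), a ratio of 1.90. For shortened lists, strictly gained and strictly lost mean absent from both shortened lists of the other tissue. An NMI called there below the cut thus counted as absent. By this count strictly gained NMIs numbered 24723 (19.0%) and strictly lost NMIs 13440 (10.3%), a ratio of 1.84. With the top 100000, 50000 and 20000 NMIs of each library the ratio of gained to lost was 1.87, 1.58 and 1.39. That of strictly gained to strictly lost, counted in the same way, was 1.72, 1.34 and 1.13. At 20000 NMIs per library, 35.9% of 22496 merged NMIs were kept, 37.3% gained and 26.8% lost. Equal lists did not make the tissue sets equal. With 117229 NMIs per library, the brain replicates shared 111483 stretches and the day 1 replicates 104930. A brain stretch that overlapped several day 1 stretches also counted as a single kept NMI. Both features raise gained relative to lost NMIs, so a ratio above 1 cannot be read apart from them. The ratio also depended on single libraries, since it was 5.95 with brain replicate 2 taken alone, 3.45 with brain replicate 1 alone, 1.99 with day 1 replicate 2 alone and 1.80 with day 1 replicate 1 alone, each set against both replicates of the other tissue. The number of lost NMIs ranged from 10122 without brain replicate 1 to 22800 without day 1 replicate 2.

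**Figure D1:**
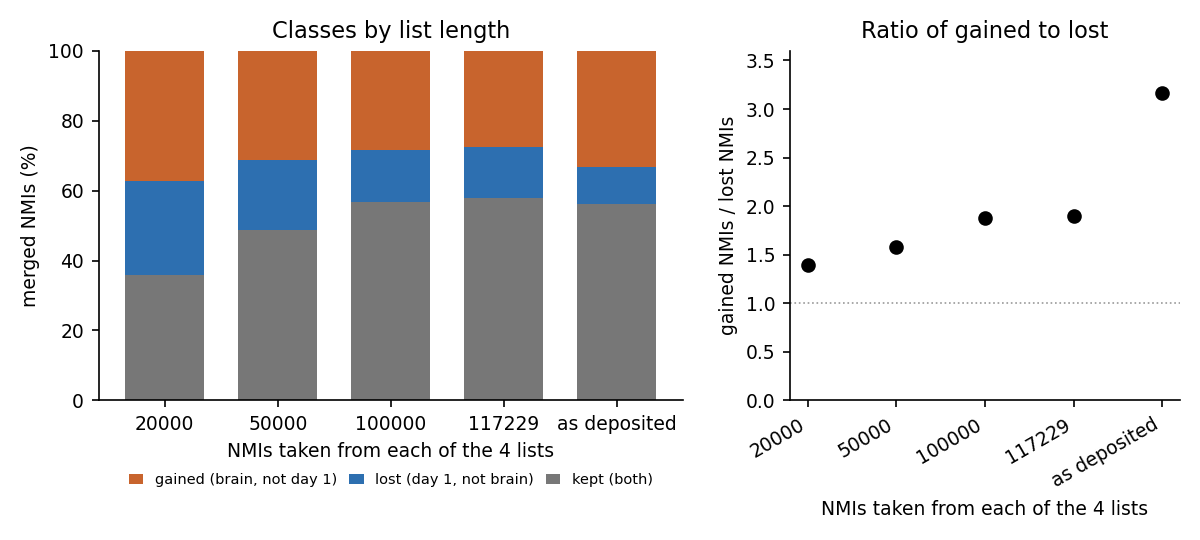
Left, the percentage of merged NMIs that were gained (orange), lost (blue) or kept (gray) when the given number of NMIs with the highest -log10 q-value was taken from each of the 2 brain and 2 day 1 lists, or the lists as deposited. Right, the number of gained NMIs divided by the number of lost NMIs for the same lists, which was 1.39 with 20000 NMIs per list and 3.16 with the deposited lists, always above the dotted line of equal numbers.

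Whether an NMI was found in the other tissue depended on its strength within its own list. Here an NMI counts as found when it overlaps an NMI of either library of the other tissue. In the weakest decile of the brain lists by -log10 q-value, 55.9% and 66.6% of NMIs had no day 1 NMI, against 3.27% and 3.03% in the strongest decile. In day 1, the weakest decile had no brain NMI in 29.0% and 27.3% of cases, and the strongest decile in 3.71% and 2.57%. The share without the other tissue fell at each step up the list in the brain libraries. In day 1 it rose from the decile below the strongest to the strongest one, from 2.91% to 3.71% in replicate 1 and from 2.55% to 2.57% in replicate 2. In the strongest decile the 2 tissues thus missed each other at similar rates, and the 4 values overlapped between tissues.

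Absence from the other replicate was concentrated among weak NMIs. In the strongest decile no brain NMI was missing from the other brain replicate, and 0.00834% and 0.0171% of day 1 NMIs were missing from the other day 1 replicate, so that strong NMIs were seldom missing from the second replicate of their own tissue. At the weak end it was large: 66.1% of the weakest decile of brain replicate 2 lay outside the NMIs of brain replicate 1, against 15.3% the other way. In day 1 the weakest decile was missing from the other replicate in 45.4% and 41.8% of cases. Against one brain library at a time, as the replicate share is counted, 40.9% and 30.0% of that decile of day 1 replicate 1 and 39.2% and 28.6% of that of day 1 replicate 2 were missing from brain replicates 1 and 2. Over the whole lists the order was reversed against brain replicate 1 only. Of day 1 replicate 1, 18.5% and 13.1% were missing from brain replicates 1 and 2 and 13.2% from the other day 1 replicate. For day 1 replicate 2 these shares were 16.7%, 11.997% and 12.063%. Day 1 NMIs were thus missing from brain replicate 2 about as often as from the other day 1 replicate.

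**Figure D2:**
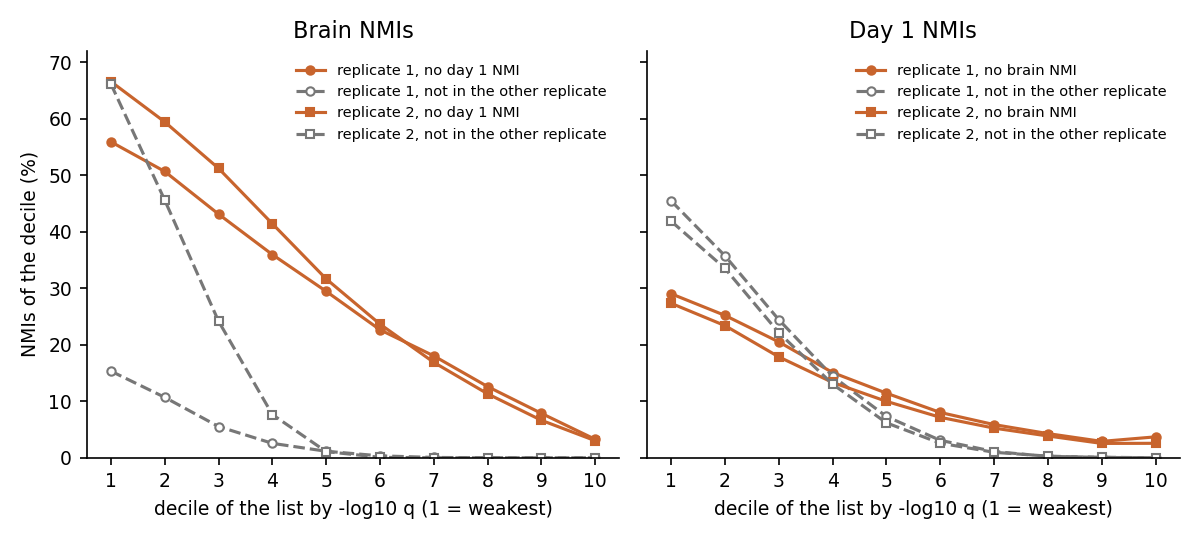
Percentage of NMIs with no NMI in either library of the other tissue (orange, solid) and with none in the other replicate of the same tissue (gray, dashed), by decile of each list in order of -log10 q-value, for brain (left) and day 1 (right), with circles for replicate 1 and squares for replicate 2. In the strongest decile the share with no NMI in the other tissue is 2.57% to 3.71% in the 4 libraries, while the share with none in the other replicate is at or near 0.

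Kept NMIs were stronger than those found in 1 tissue. For each merged NMI the value of the strongest NMI of a library in it was taken. This favours kept NMIs, which more often hold several. The median fold enrichment of kept NMIs was 10.29 and 10.01 in the brain libraries and 9.90 and 10.02 in the day 1 libraries. Gained NMIs had a median fold of 5.40 and 5.55 in brain, and lost NMIs one of 6.22 and 6.04 in day 1. These values describe the classes and were not tested, because the classes rest on the same peak calls.

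The classes also differed in width. A kept merged NMI is the union of the stretches of both tissues, so its width is not the same measure as that of a gained or lost NMI, which comes from 1 tissue. Kept NMIs had a median width of 693 bp (quartiles 464 and 1087 bp), gained NMIs 353 bp (261 and 519 bp) and lost NMIs 295 bp (251 and 372 bp). At least 1 kb was reached by 29.1% of kept, 4.45% of gained and 0.902% of lost NMIs, which is 23336, 2124 and 136 NMIs. With equally long lists the medians were 721, 399 and 302 bp in the same order. Among brain stretches, the share with no day 1 NMI was 73.8% below 250 bp and 51.3% from 250 to 500 bp, 25.6% from 500 to 1000 bp, 9.96% from 1000 to 2000 bp and 2.31% of 303 stretches at 4000 bp or more. Among day 1 stretches the share with no brain NMI was 33.1% below 250 bp, 16.5% from 250 to 500 bp, 4.61% from 500 to 1000 bp and 1.96% from 1000 to 2000 bp, and at 4000 bp or more it was 2 of 21 stretches.

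Kept NMIs were wider in brain than in day 1 embryos. Over whole lists brain NMIs were the widest of all tissues, not only wider than those of day 1. Median widths were 446 and 432 bp in muscle, 448 and 496 bp in PBMCs, 524 and 475 bp in sperm and 428 and 438 bp in day 2. Brain and day 1 libraries differ in depth, and whether depth affects width was not tested. Of the 80156 kept NMIs, 70588 (88.1%) joined 1 brain stretch with 1 day 1 stretch, with a median width of 604 bp in brain and 411 bp in day 1. The brain stretch was the wider one in 79.7% of these, the median ratio of brain to day 1 width was 1.31 (quartiles 1.05 and 1.73), and with equally long lists it was 1.33. The brain stretch was at least 2 times as wide in 12006 of them and the day 1 stretch in 892. In 62.0% the day 1 stretch lay wholly inside the brain stretch, and the reverse held in 11.1%. Brain NMIs also bridged several embryonic ones, since 9021 kept NMIs joined 1 brain stretch with 2 or more day 1 stretches, up to 11, whereas 461 joined 1 day 1 stretch with several of brain.

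The difference in width was larger than that between replicates. Among NMIs within kept merged NMIs that paired one-to-one between 2 single libraries, the median ratio of widths was 1.19 to 1.35 for the 4 pairs of a brain with a day 1 library, against 0.927 for brain replicate 1 over brain replicate 2 and 0.979 for day 1 replicate 1 over day 1 replicate 2. The peak summits of the same pairs lay a median of 34 to 39 bp apart between tissues, against 20 bp between brain replicates and 36 bp between day 1 replicates. The order of the NMIs by fold enrichment was less alike, with a Spearman correlation across NMIs of 0.449 to 0.516 between tissues, 0.916 between brain replicates and 0.795 between day 1 replicates. NMIs are not independent replicates, and these correlations are given as a description of single-NMI pairs, 64403 to 81631 per pair of libraries.

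The longest kept NMIs were wide in brain and broken into pieces in the embryo and in the other tissues. The longest was a single brain stretch of 15917 bp on scaffold PIZI01000019v1 (positions 6632335 to 6648251), with a fold enrichment of 17.9 and 10.2 in the brain libraries. The same 15917 bp held 9 NMIs in each day 1 library, the strongest with a fold of 23.2 and 22.9. It was also broken up in the other tissues, with 9 and 8 NMIs in muscle, 9 and 7 in PBMCs, 6 and 6 in sperm and 10 and 10 in day 2. The next longest were 10032 bp on PIZI01000015v1 (3912085 to 3922116), with 1 NMI in each brain library and 2 in each day 1 library, and 9099 bp on PIZI01000059v1 (4231377 to 4240475), with 1 in each brain library and 6 and 7 in day 1. The former held 3 and 3 NMIs in muscle, 6 and 6 in PBMCs, 2 and 2 in sperm and 4 and 3 in day 2. The latter held 6 and 5 in muscle, 4 and 3 in PBMCs, 4 and 4 in sperm and 7 and 6 in day 2. Genes at these positions are not given, as the analysis had no annotation on petMar3.

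Gained NMIs were found more often than lost ones in the other adult tissues, and less often in sperm and day 2 embryos. The 8 libraries of the other 4 tissues took no part in the choice of the classes. Gained NMIs overlapped an NMI of the muscle libraries in 70.3% and 69.8% of cases and of the PBMC libraries in 58.8% and 62.0%. For lost NMIs these shares were 36.0% and 38.8% in muscle and 12.9% and 16.3% in PBMCs. In the sperm libraries the order was the other way round, with 35.4% and 42.9% of gained NMIs and 82.8% and 89.5% of lost NMIs. In day 2 embryos, the next embryonic stage, 9.90% and 10.8% of gained NMIs and 48.3% and 47.9% of lost NMIs were found. Kept NMIs were found in 83.9% to 98.2% of cases in all 8 libraries, and in each more often than gained or lost NMIs.

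Replicates of each tissue differed far less than the classes did. The share of gained minus that of lost NMIs was 34.4 and 31.0 points in muscle and 45.9 and 45.7 points in PBMCs, but -47.4 and -46.6 points in sperm and -38.4 and -37.0 points in day 2. The difference was therefore positive in 4 of 4 muscle and PBMC libraries and negative in 4 of 4 sperm and day 2 libraries. When each of the 12 lists was reduced to its 89979 strongest NMIs, the length of the shortest list, the differences were 35.9 to 53.9 points in muscle and PBMCs and -43.0 to -40.3 points in sperm and day 2. The day 2 lists are as short as the shortest here, with 89979 and 90027 NMIs, while the sperm lists hold 124181 and 141295. At that common length, day 2 held 30.3% and 31.8% of gained and 73.1% and 72.5% of lost NMIs. The median -log10 q-value in day 2 was 12.2 and 13.5, near the 12.2 and 12.5 of day 1, against 60.8 and 58.7 in sperm. A gained NMI with no day 2 peak was thus not shown to be absent there. How far weak signal lowers the day 2 shares was not tested.

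The division was sharper for NMIs absent from both libraries of the other tissue. Strictly gained NMIs were found in 67.0% and 65.9% of cases in muscle, 55.8% and 58.3% in PBMCs, 19.5% and 26.1% in sperm and 3.16% and 3.69% in day 2. Strictly lost NMIs were found in 26.1% and 28.4% in muscle, 7.28% and 9.09% in PBMCs, 80.5% and 87.8% in sperm and 48.4% and 47.6% in day 2. Of the 33996 strictly gained NMIs, 19214 (56.5%) were found in a muscle or PBMC library and in no sperm or day 2 library, and 9189 (27.0%) were in all 4 muscle and PBMC libraries and no sperm or day 2 library. The opposite pattern, in a sperm or day 2 library and in no muscle or PBMC library, was found for 1174 (3.45%). Of the 9624 strictly lost NMIs, 5749 (59.7%) were found in sperm or day 2 and in no muscle or PBMC library, and 128 (1.33%) showed the opposite pattern.

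Some strictly gained NMIs were seen in brain alone, and these were narrow, as were NMIs of some other patterns. A total of 5128 strictly gained NMIs (15.1%) were found in none of the other 8 libraries and had a median width of 267 bp, against 457 bp for those in all 4 muscle and PBMC libraries and no sperm or day 2 library. Another 4443 (13.1%) were found in both muscle libraries and in no PBMC, sperm or day 2 library, and 1690 (4.97%) in both PBMC libraries and no muscle, sperm or day 2 library. Their median widths were 336 and 299 bp. Strictly gained NMIs in a sperm or day 2 library and no muscle or PBMC library also had a median of 267 bp. Strictly lost NMIs in none of the 8 libraries had one of 251 bp. Of the strictly lost NMIs, 562 (5.84%) were found in none of the other 8 libraries, 1826 (19.0%) in both sperm libraries and no other of the 8, and 1814 (18.8%) in both sperm and both day 2 libraries and no muscle or PBMC library.

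**Figure D3:**
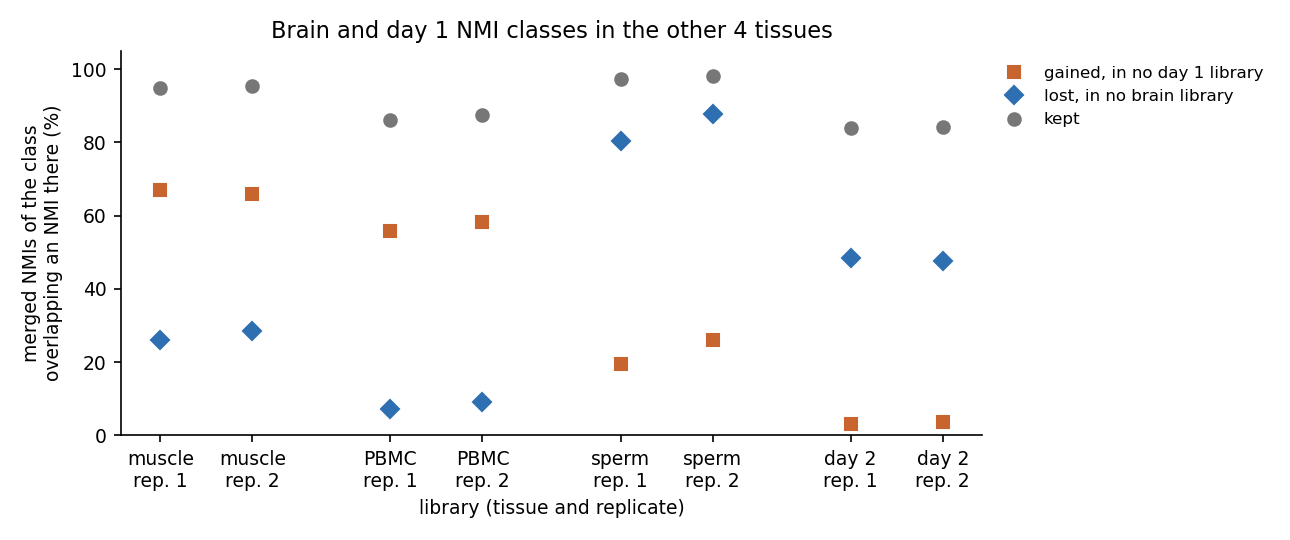
Percentage of strictly gained (orange squares), strictly lost (blue diamonds) and kept (gray circles) merged NMIs that overlapped an NMI in each of the 8 libraries of muscle, PBMCs, sperm and day 2 embryos. Strictly gained NMIs lie above strictly lost ones in the 4 muscle and PBMC libraries (55.8% to 67.0% against 7.28% to 28.4%) and below them in the 4 sperm and day 2 libraries (3.16% to 26.1% against 47.6% to 87.8%).

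Small sets of strong NMIs were present in one tissue and absent from both libraries of the other. There were 268 strictly gained NMIs in the strongest decile of both brain libraries (0.788% of 33996), with a median width of 1034 bp. In the strongest decile of both day 1 libraries there were 246 strictly lost NMIs (2.56% of 9624), with a median width of 492.5 bp. The first set was found in 98.1% to 99.3% of cases in the 4 muscle and PBMC libraries, in 10.8% and 12.3% in sperm and in 2.61% and 4.48% in day 2. The second was found in 95.9% and 95.5% of cases in day 2 and in 85.0% and 85.8% in sperm, but in 24.0% and 24.8% in muscle and 7.32% and 4.88% in PBMCs. The strongest lost NMIs were spread over 186 scaffolds and the strongest gained NMIs over 96. By single library, 15.9% and 18.5% of kept NMIs were in the strongest decile of brain and 14.0% and 13.9% in that of day 1. Counted in the same way, the shares were 1.92% and 2.31% of strictly gained NMIs in brain. They were 4.85% and 3.40% of strictly lost NMIs in day 1. Kept NMIs of any strength were found in 94.9% and 95.5% of cases in muscle and 86.2% and 87.6% in PBMCs. In sperm they were found in 97.2% and 98.2%, and in day 2 in 83.9% and 84.2%. The small sets were not compared with kept NMIs of equal strength.

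The 3 longest strictly gained NMIs were all shared with muscle and PBMCs. The longest covered 7150 bp on PIZI01000001v1 (20826391 to 20833540), with a fold enrichment of 17.3 and 13.6 in the brain libraries and no NMI in either day 1, sperm or day 2 library. It held 5 NMIs in each muscle and each PBMC library, the strongest with a fold of 43.4 and 39.0 in muscle and 49.99 and 36.7 in PBMCs. The next were 5122 bp on PIZI01000057v1 (2325060 to 2330181) and 4255 bp on PIZI01000063v1 (759118 to 763372), both with no NMI in sperm, day 1 or day 2 and with NMIs in both muscle and both PBMC libraries. By rank in both brain lists, the strongest strictly gained NMI was 1444 bp on PIZI01000033v1 (1474302 to 1475745), with a fold of 34.8 and 27.5 in brain, 27.9 and 34.5 in muscle and 38.6 and 31.2 in PBMCs, and no NMI in the 6 sperm, day 1 and day 2 libraries. An NMI of 1411 bp on PIZI01002843v1 (793 to 2203) showed the same presence and absence, with a fold of 48.1 and 38.5 in brain. The third, 2491 bp on PIZI01000006v1 (16920681 to 16923171), had a fold of 34.3 and 24.0 in brain and weak NMIs in sperm, with a fold of 6.01 and 6.93, and in day 2 replicate 2, with a fold of 4.31.

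The 3 longest strictly lost NMIs were all shared with day 2. The longest covered 4793 bp on PIZI01007837v1 (400 to 5192), with a fold enrichment of 7.91 and 4.84 in day 1, 2 NMIs in each day 2 library with a fold of up to 8.07 and 6.61, and 4 weak NMIs in each sperm library with a fold of up to 1.58 and 1.86. No NMI was called there in brain, muscle or PBMCs. The next covered 2681 bp on PIZI01000052v1 (3428359 to 3431039), with a fold of 31.8 and 29.5 in day 1, 24.8 and 25.1 in day 2 and 9.77 and 8.69 in sperm, against no NMI in brain or PBMCs and a fold of 3.21 and 3.09 in muscle. The last, 2316 bp on PIZI01000027v1 (4089763 to 4092078), had a fold of 6.22 and 5.63 in day 1 and NMIs in day 2, and none in brain, muscle, PBMCs or sperm. The strictly lost NMIs with the highest rank in both day 1 lists were shorter. They were 589 bp on PIZI01004095v1 (14139 to 14727; fold 27.0 and 28.3 in day 1), 499 bp on PIZI01000010v1 (589375 to 589873; fold 13.5 and 13.6) and 574 bp on PIZI01009508v1 (1 to 574; fold 33.8 and 31.1). All 3 were present in both day 2 and both sperm libraries, and the last was also called in muscle, with a fold of 6.22 and 7.37.

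The longest lost NMI of all was the mitochondrial genome, which the study reports to be almost unmethylated in the lamprey as in other vertebrates. A day 1 NMI of 15935 and 15850 bp spanned most of it, with a fold enrichment of 8.45 and 8.98 and in each list its -log10 q-value was above that of more than 99.9% of the NMIs. Brain replicate 1 had 1 NMI of 323 bp there, with a fold of 1.87, and brain replicate 2 had none. Lost here therefore means only that the brain replicates shared no peak. Day 2 embryos had 2 NMIs each of 735 to 897 bp, and muscle, PBMC and sperm libraries had none. Leaving the mitochondrial sequence out changed the number of lost NMIs by 1, to 15079.

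The shares of kept, gained and lost NMIs were similar on the scaffolds with the most NMIs. NMIs of the 2 tissues lay on 5095 scaffolds, of which 143 carried at least 50 merged NMIs and together 89.7% of them. On these 143, the share gained had a median of 34.2% and ranged from 15.6% to 76.8%, and the share lost had a median of 9.89% and ranged from 1.43% to 43.2%. Gained exceeded lost on 141 of the 143, and on 137 with equally long lists. On the 54 scaffolds with 1000 or more merged NMIs the range was narrower, 27.4% to 39.4% gained and 7.38% to 12.8% lost.

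The extremes lay on scaffolds with fewer merged NMIs. The highest shares gained were on PIZI01000191v1, with 43 gained, 2 lost and 11 kept NMIs, on PIZI01000204v1, with 53 gained, 8 lost and 11 kept, and on PIZI01000115v1, with 31 gained, 8 lost and 11 kept. The highest share lost was on PIZI01000066v1, with 20 gained, 32 lost and 22 kept NMIs, where brain lists held 41 and 56 NMIs and day 1 lists 71 and 63. It was followed by PIZI01000112v1, with 14 gained, 20 lost and 56 kept, and PIZI01000092v1, with 20 gained, 11 lost and 26 kept. Not all of these scaffolds were short, since NMIs reached position 4431722 on PIZI01000066v1 and 1408225 on PIZI01000092v1. With equally long lists the share lost on PIZI01000066v1 was 48.5%, and the share gained on PIZI01000191v1 was 75.9%.

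**Figure D4:**
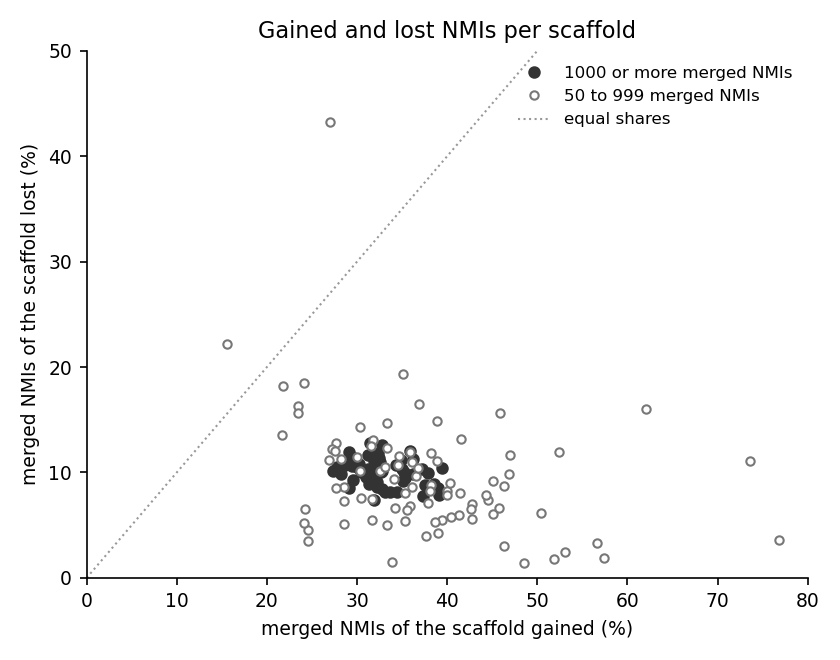
Percentage of the merged NMIs of a scaffold that were gained (horizontal) and lost (vertical), for the 143 scaffolds with at least 50 merged NMIs, with filled points for 1000 or more. The filled points lie between 27.4% and 39.4% gained and between 7.38% and 12.8% lost, and 2 scaffolds lie above the dotted line of equal shares.

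The share of lost NMIs was higher on short scaffolds. Scaffolds were grouped by the last position at which any of the 12 libraries had an NMI, as scaffold lengths were not used here. The share lost was 19.7% of 3515 merged NMIs on scaffolds of up to 10 kb by this measure and 14.8% of 8029 at 10 to 100 kb. It was 10.3%, 9.54% and 10.2% at 100 to 1000 kb, 1000 to 10000 kb and above. The share gained showed no such order, with 33.1%, 33.0%, 37.3%, 35.8% and 32.3% in the same groups. Of the strictly lost NMIs, 524 (5.44%) lay on scaffolds with no brain NMI at all, and of the 246 strongest of them 82 (33.3%) did, on 76 scaffolds. Of the strictly gained NMIs, 819 (2.41%) lay on scaffolds with no day 1 NMI, and 4 of the 268 strongest did (1.49%). The 82 strong lost NMIs on scaffolds without brain NMIs were found in 84.1% and 85.4% of cases in sperm, 96.3% and 93.9% in day 2, 14.6% and 15.9% in muscle and 8.54% and 4.88% in PBMCs.

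Scaffolds with NMIs in both libraries of 1 tissue and in neither of the other numbered 629 for brain and 434 for day 1, most with a single merged NMI (496 and 371). Of the brain scaffolds, 66.6% had NMIs in both muscle libraries and 22.4% in both sperm libraries, and 12.6% had none in muscle or PBMCs. Of the day 1 scaffolds, 14.5% had NMIs in both muscle libraries and 75.6% in both sperm libraries, and 76.0% had none in muscle or PBMCs. Brain scaffolds with the most NMIs were PIZI01003378v1 and PIZI01003590v1, with 5 and 6 NMIs each in the brain libraries, and PIZI01001233v1, with 5 and 5, and all 3 also carried muscle NMIs. Day 1 scaffolds with the most were PIZI01004468v1, with 10 and 10 NMIs in the day 1 libraries, PIZI01000490v1, with 10 and 8, and PIZI01007629v1, with 4 and 5. None of these 3 had an NMI in brain, muscle or PBMCs, and all had NMIs in day 2. They differed in sperm, where PIZI01000490v1 held 7 and 9 NMIs and PIZI01007629v1 held 5 and 6, but PIZI01004468v1 held none in either library.

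NMIs of all 3 classes lay next to their own class more often than their shares of all NMIs. For kept NMIs the nearest merged NMI was another kept one in 64.2% of cases, against a share of 56.1%. The nearest merged NMI was another gained one for 49.2% of gained NMIs, which make up 33.4% of all, and another lost one for 22.3% of lost NMIs, which make up 10.6%. The nearest NMI of a gained NMI was a lost one in 6.38% of cases, and that of a lost NMI a gained one in 20.9%. With equally long lists 45.9% of gained and 25.5% of lost NMIs were next to their own class, which then made up 27.7% and 14.6%. Gained NMIs lay a median of 3.61 kb and lost NMIs 2.16 kb from the nearest kept NMI on the scaffold, and 30.0% of gained and 21.0% of lost NMIs lay more than 10 kb from one or on a scaffold without any.

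Uninterrupted runs were longer for gained than for lost NMIs, and kept NMIs were most often in runs. In runs of 3 or more, with no NMI of another class between, lay 21080 gained NMIs (44.2%), 1703 lost NMIs (11.3%) and 52886 kept NMIs (66.0%). There were 319 runs of 10 or more gained, 3 of lost and 635 of kept NMIs, and the longest held 35, 10 and 29. With equally long lists 40.4% of gained and 13.9% of lost NMIs were in runs of 3 or more, and their runs of 10 or more numbered 203 and 4. A class with more members forms longer runs, so these counts describe the layout and do not compare the tendency of the classes to cluster.

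The longest run of strictly gained NMIs held 35 NMIs over 156 kb of PIZI01000058v1 (3080251 to 3236646). Of the 35, 24 and 26 had an NMI in the muscle libraries, 14 and 15 in PBMCs, 1 and 1 in sperm and 0 in day 2. The next were 30 NMIs over 54.1 kb of PIZI01000015v1 (1269413 to 1323499), with 29 and 26 in muscle and 23 and 21 in PBMCs, and 29 NMIs over 60.8 kb of PIZI01000031v1 (10930299 to 10991134), with 20 and 16 in muscle and 22 and 23 in PBMCs. Neither had one in a sperm or day 2 library. The longest run of strictly lost NMIs held 9 NMIs over 10.8 kb of PIZI01004468v1 (1016 to 11820), of which 7 and 8 had an NMI in day 2 and none had one in sperm, muscle or PBMCs. A run of 8 lay on PIZI01000060v1 (1045911 to 1070481), of which 7 and 7 had an NMI in the sperm libraries and 6 and 4 in day 2, and 1 in each muscle library and in PBMC replicate 1. Another run of 8, on PIZI01000490v1 (12852 to 51465), had 7 and 8 of its NMIs in sperm, 6 and 5 in day 2 and none in muscle or PBMCs.

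In windows of 100 kb, gained NMIs were unevenly spread. There were 5466 windows with at least 10 merged NMIs, and the share gained had a median of 30.9%, with the lowest decile ending at 13.0% and the highest starting at 61.5%. More than 50% of the NMIs were gained in 967 windows (17.7%), which held 31.0% of the gained NMIs in all such windows, and more than 50% were lost in 5 windows. The share lost had a median of 8.00%, and 1239 windows had none. Windows with 30 or more merged NMIs had 26.6% gained and 64.9% kept, against 37.1% gained and 52.1% kept in windows with 10 to 14.

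Windows rich in gained NMIs were not poorer in lost ones relative to the embryonic NMIs they held. Across windows the shares gained and lost had a Pearson correlation of -0.35 and a Spearman correlation of -0.35, but the 2 shares have a common denominator. Lost NMIs as a share of the day 1 NMIs (kept and lost) were 15.3% in the 967 windows with a majority gained and 14.4% in the others. In the 3501 windows with at least 10 brain and 10 day 1 NMIs, the share of brain NMIs gained and the share of day 1 NMIs lost had a Pearson correlation of 0.13 and a Spearman correlation of 0.09, which still share the kept NMIs. Windows are not independent, and no test was run.

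**Figure D5:**
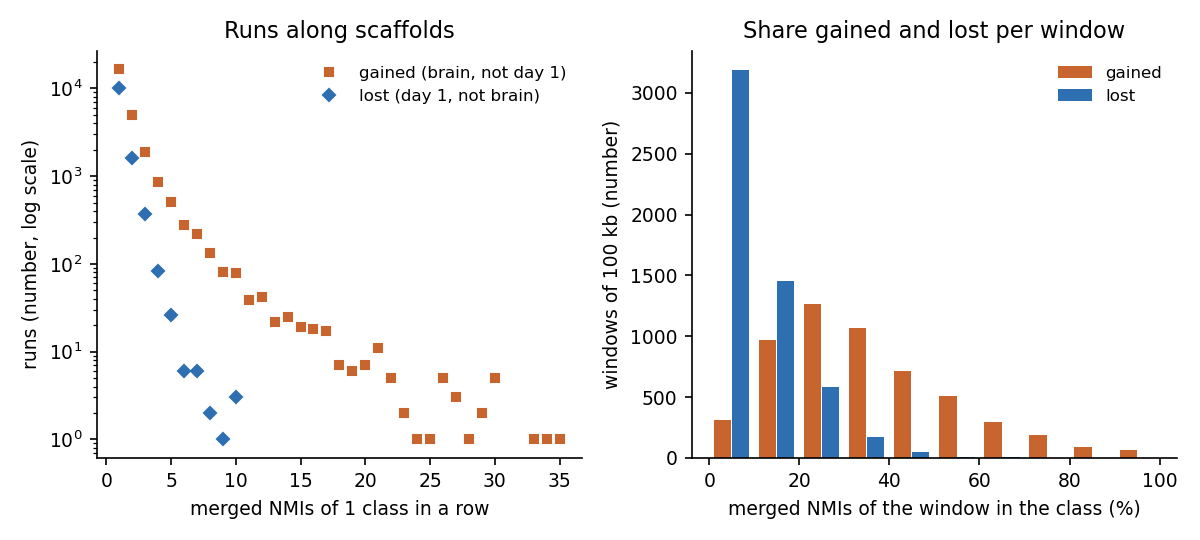
Left, the number of runs (log scale) by the number of merged NMIs of one class in a row on a scaffold, for gained NMIs (orange) and lost NMIs (blue); the longest runs hold 35 and 10. Right, the number of 100 kb windows by the percentage of their merged NMIs that were gained (orange) or lost (blue), in steps of 10 points, for the 5466 windows with at least 10 merged NMIs; 967 windows have more than 50% gained and 5 have more than 50% lost.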

How the data were processed

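BioCAP libraries of brain and day 1 embryos, 2 per tissue, were compared, and 8 libraries of muscle, PBMCs, sperm and day 2 embryos were used to describe the classes. Reads were processed by the authors with Trimmomatic (trimming), Bowtie2 (alignment to petMar3), Picard (duplicate removal) and MACS2 (peak calling, one list per library). The sources used here do not state its options or whether inputs entered. Each deposited peak carries its fold enrichment (a ratio), -log10 p-value, -log10 q-value and a score that was left aside. Without read counts no counting intervals could be given.

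Bases shared by both replicates (minimum overlap 1 bp) were taken per tissue and merged in Python 3.11.15 with NumPy 2.4.6, pandas 2.3.3 and SciPy 1.17.1. Positions are given from 1. Functions were tested on simulated lists. Named NMIs were the 3 longest kept, strictly gained and strictly lost, the 3 strictly gained and strictly lost with the highest mean rank by -log10 q, the 3 longest runs of each, and the scaffolds with the highest shares gained, shares lost and NMIs in 1 tissue only, and the mitochondrial NMI was added after its values were seen. The classes, rules and lists were chosen with earlier results of these data known. Alternatives were equally long lists, stricter q-values, other overlap and merging rules and each library left out. Sequences and genes are not given, for want of a petMar3 genome in the analysis.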

Additional observations from a re-analysis of the deposited data

How the results depend on the processing

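The ratio of gained to lost NMIs stayed above 1 in every alternative run, and its size moved with most of them. The ratio also reflects how many stretches replicates shared and how many of these joined into a single kept NMI. It was 3.16 as reported, 1.90 with equally long lists, 1.84 with such lists ranked by fold, 1.87, 1.58 and 1.39 with 100000, 50000 and 20000 NMIs per list, 2.06 with a reciprocal overlap of 50%, 4.29 with a -log10 q of 5 or more and 7.27 with 10 or more. A common q-value takes more from day 1, whose median -log10 q was 12.2 and 12.5 against 26.1 and 30.1 in brain. Counts that moved over 1.5 times were 31478 gained with 100000 NMIs per list, 27555 kept and 17732 gained with 50000, and 8080 kept, 8396 gained and 6020 lost with 20000, by construction. At the stricter q-value 47939 were kept and 6786 lost, and 9624 were lost when an NMI in either brain library was enough to count as present. Without day 1 replicate 2, 22800 were lost, which was also a change of over 1.5 times.

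Leaving out 1 library gave 79833 to 86823 kept, 40496 to 60190 gained and 10122 to 22800 lost NMIs, a ratio of 1.80 to 5.95, 47.1% to 51.9% of gained and 18.7% to 26.4% of lost NMIs next to their own class, and a width ratio of kept NMIs of 1.16 to 1.49, partly because 1 library alone holds more and wider NMIs than 2 share. The mean share of gained minus lost NMIs in muscle and PBMCs was 39.2 points, 36.0 to 42.3 with 1 library left out and 45.5 with equally long lists of 12 libraries, and that of lost minus gained in sperm and day 2 was 42.4 points, 34.0 to 44.5 with 1 left out. Shares next to their own class were 45.9% of gained and 25.5% of lost NMIs with equally long lists, and 48.5% and 19.3% for the strict classes. The difference in Jaccard index was 0.254 to 0.302. The other alternatives (NMIs of either replicate, whole NMIs of replicate 1, joining at 500 bp) changed no count by over 1.5 times.

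The labels do not say that a replicate number marks a shared batch. With the replicate block, which set same-numbered libraries against each other, the means of both pairs were 87535.5 kept, 47896.5 gained and 18104.5 lost NMIs, and the difference in Jaccard index was 0.256. Over 70588 kept NMIs, the differences in fold between replicates correlated at -0.14 across tissues, and the crossed pairing, added after seeing this, gave 87914.5 kept, 47537 gained and 17637 lost NMIs. Making the lists equally long does not equalise depth, and a weak NMI missing from a day 1 list was not shown to be absent.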
